A study of Mus musculus with 21 samples.

Results

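The forkhead transcription factors form a family of proteins that share a winged-helix domain for binding DNA, and its mammalian members are named Fox with a letter for the subfamily. Here they were described in germ cells enriched from testes of mice at 12 dpp (days post-partum), when many of the oldest germ cells of the testis have begun meiotic prophase. The members were the rows of an RNA-seq table whose symbol is Fox, a letter from a to s and a number, and 1 gene that fits this pattern was set aside. This left 43 of the 37620 genes in the table. All samples came from C57BL/6J (B6) males of that age, and the labels call them spermatocytes. Each of 4 sample numbers, namely 186wt, 343wt, 444wt and 456wt, is represented by 3 libraries. No treatment or other genotype is named, so the groups compared are these 4 numbers, and whether a number stands for 1 animal or a pool is not given in the sources used here. Values are FPKM, fragments scaled both to the length of the transcript and to the size of the library, so levels of different genes can be set side by side. A number's value is the average of its 3 libraries, and each mean ± SD is over the 4 numbers.

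Forkhead proteins bind DNA through a helix that lies in the major groove. Members differ widely in what controls them. FoxO proteins leave the nucleus when phosphorylated by AKT downstream of growth factor receptors such as KIT. FoxM1 drives genes of the G2 and M phases of dividing cells, FoxP and FoxK proteins act largely as repressors, FoxA proteins can open closed chromatin in gut-derived organs, and FoxJ1 switches on the genes of motile cilia. In the testis, FoxO proteins are known from the maintenance and differentiation of spermatogonia, and FoxL2 is the factor that maintains the ovarian against the testicular fate of supporting cells.

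The stretch that encodes the DNA-reading helix is shown for 7 members, because it is what the family shares and where subfamilies part. It was found by pattern in 42 of the 43 members, as 33 bases of coding sequence on NCBI build 37 (mm9). Foxl1, which GENCODE M1 annotates as a pseudogene, gave no match. Bases are in lower case where they equal the most frequent base of the family at that position and in capitals where they differ. Shown are the 4 members with the highest level, the pair that varied most between sample numbers among those of 1 FPKM or more (Foxs1 and Foxq1), and Foxr1.
Foxo3 (chr10:41917681-41994627, minus strand, across an intron): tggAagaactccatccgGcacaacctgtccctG
Foxm1 (chr6:128319498-128321001, plus strand, across an intron): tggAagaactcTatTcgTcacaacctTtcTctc
Foxp4 (chr17:48008274-48011589, minus strand, across an intron): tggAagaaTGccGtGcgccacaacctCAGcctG
Foxn3 (chr12:100626610-100626642, minus strand): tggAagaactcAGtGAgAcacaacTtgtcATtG
Foxs1 (chr2:152758652-152758684, minus strand): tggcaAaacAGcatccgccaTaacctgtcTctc
Foxq1 (chr13:31651260-31651292, plus strand): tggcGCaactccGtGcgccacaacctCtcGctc
Foxr1 (chr9:44242037-44242069, minus strand): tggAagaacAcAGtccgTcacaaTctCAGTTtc

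Across all 861 pairs of the 42 stretches, 17 to 33 of the 33 bases were identical, with a median of 25. In 2 pairs the stretch was identical throughout, Foxd3 with Foxd4 and Foxe1 with Foxe3. The members of 1 FPKM or more differed from the consensus at a median of 6 bases (range 2 to 13, n = 20), and those below 1 FPKM at a median of 5 (range 0 to 13, n = 22). Despite this likeness, reads could be assigned to most members. Of the 43 genes, 25 shared no 50-base stretch of transcript with any other annotated gene, and shared stretches made up over 5% of the transcript in 4, among them Foxb1, Foxp3 and Foxq1. Only Foxc1 with Foxc2 and Foxd3 with Foxd4 shared such a stretch with each other. Exons of Foxm1 (144 bases), Foxj2 (158), Foxp1 (75) and Foxk2 (26) overlap those of a neighbouring gene, as do those of the low genes Foxp3, Foxb1, Foxe1 and Foxd3, and these values can include reads of the neighbour.

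How many forkhead genes counted as expressed depended on the limit. A mean of at least 0.1 FPKM was reached by 34 of 43 members (79.1%), compared with 74.2% of all protein-coding genes in the table. At least 1 FPKM was reached by 20 members (46.5%), compared with 58.7% of protein-coding genes, and at least 10 FPKM by 12 members (27.9%), compared with 36.1%. The family median was 0.507 FPKM and that of protein-coding genes 3.01 FPKM. These shares are descriptions of the table and were not tested. Counted in each number alone, 32, 30, 34 and 32 members reached 0.1 FPKM in 186wt, 343wt, 444wt and 456wt. None of the 43 was at 0 in all 12 libraries. The gene nearest below the limit of 0.1 FPKM was Foxf2 (0.0558 FPKM), and those nearest to 1 FPKM were Foxj1 (1.21 FPKM) above and Foxh1 (0.677 FPKM) below.

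**Figure D1:**
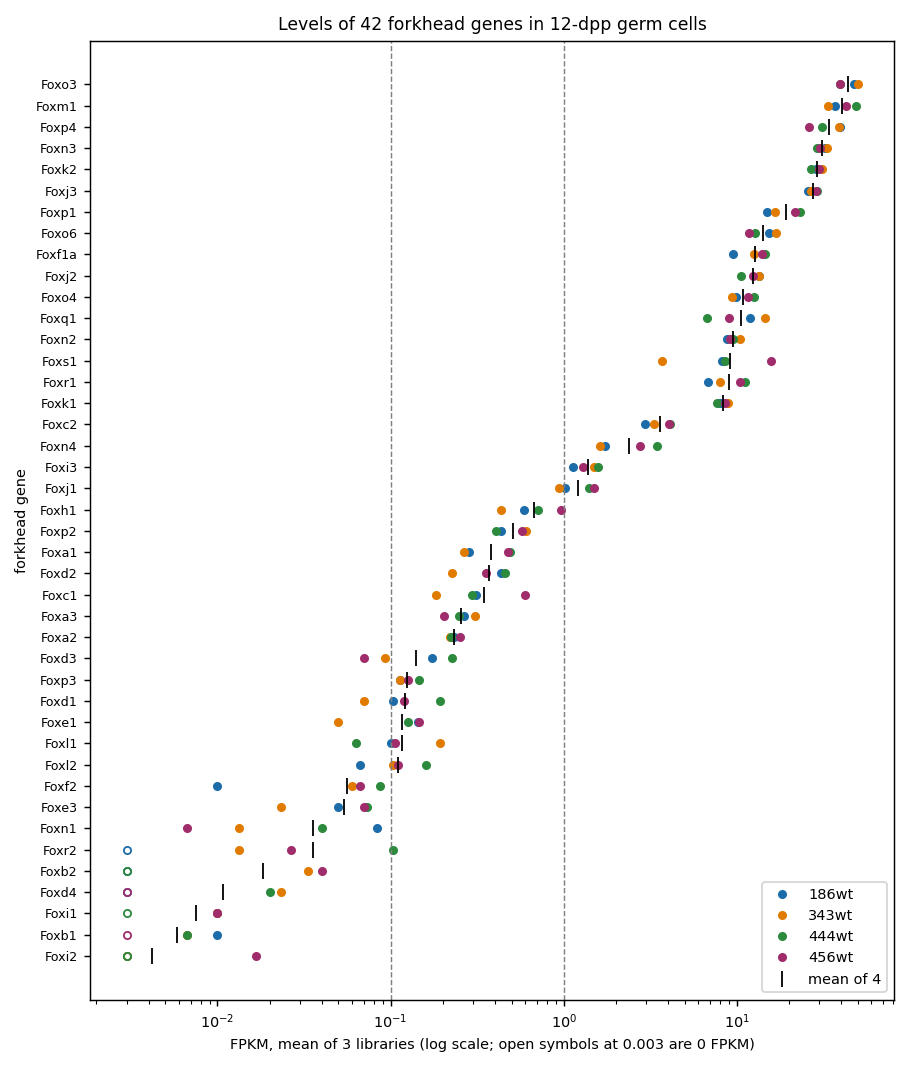
Level of 42 of the 43 forkhead genes (rows, ordered by mean) in FPKM on a log axis. Coloured points are the 4 sample numbers (means of 3 libraries), black ticks are the means, open symbols at the left stand for 0 FPKM, and dashed lines mark 0.1 and 1 FPKM. The levels fall from 44.2 FPKM for Foxo3 to 0.00417 FPKM for Foxi2, and the points of Foxs1 are the most spread among the genes of 1 FPKM or more.

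The summed level of the family hardly differed between sample numbers. It was 328.6 FPKM in 186wt, 338.9 in 343wt, 336.9 in 444wt and 336.0 in 456wt, a mean of 335.1 ± 4.47 FPKM (SD, n = 4). Of this sum, 44.8% came from 4 genes (Foxo3, Foxm1, Foxp4 and Foxn3) and 98.9% from the 20 genes of 1 FPKM or more. By subfamily, the 3 FoxO genes gave 69.3 FPKM (20.7% of the sum), the 4 FoxP genes 53.8 FPKM (16%), the 4 FoxN genes 43.2 FPKM (12.9%), the 3 FoxJ genes 41.3 FPKM (12.3%), Foxm1 alone 40.6 FPKM (12.1%) and the 2 FoxK genes 37.4 FPKM (11.2%). The FoxA, FoxB, FoxD, FoxE, FoxH and FoxL subfamilies had no member at 1 FPKM. In bulk RNA, fewer cells of a type and less RNA per cell cannot be told apart, and this applies to all levels given here.

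Among the FoxO genes, Foxo3, which in the ovary restrains the activation of resting follicles, had the highest mean of the family. Its level was 47.7 FPKM in 186wt, 50.1 in 343wt, 39.6 in 444wt and 39.4 in 456wt (mean 44.2 ± 5.51 FPKM, SD, n = 4). Each of the 6 libraries of 186wt and 343wt lay above each of the 6 others. Foxo6, the FoxO protein best known from the brain, had the same order of the 4 numbers, with 15.3, 16.9, 12.7 and 11.7 FPKM. Foxo4 ran the other way, with 9.91 and 9.43 FPKM in 186wt and 343wt and 12.6 and 11.7 FPKM in 444wt and 456wt, again without overlap between the pairs of numbers.

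Foxm1, the factor of the G2 and M phases, stood at 37.1, 33.6, 49.2 and 42.5 FPKM in the same sequence of numbers (mean 40.6 ± 6.80 FPKM, SD, n = 4). It was highest in 444wt, whose libraries lay above all others. Among the FoxP genes, which encode repressors that act as dimers, Foxp4 stood at 39.7, 39.0, 30.9 and 26.2 FPKM, while Foxp1 stood at 14.98, 16.7, 23.3 and 21.8 FPKM. In Foxp4 each library of 186wt and 343wt lay above each of the others, and in Foxp1 each lay below. Foxp2, known from neural circuits of vocalisation, stayed at 0.507 ± 0.0997 FPKM, and Foxp3, which defines regulatory T cells, at 0.125 ± 0.0158 FPKM (SD, n = 4).

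The FoxK genes and Foxn2, Foxn3, Foxj2 and Foxj3 are described as a group because their coefficients of variation between numbers were below those of the other members of 1 FPKM or more. Foxn3, a repressor linked to cell cycle checkpoints, stood at 32.4, 33.3, 29.3 and 30.2 FPKM. Foxk2 stood at 28.6, 31.0, 26.9 and 30.0 FPKM, and its relative Foxk1 at 8.02, 8.88, 7.67 and 8.59 FPKM. FoxK proteins repress genes of autophagy, and both genes had the same order of the 4 numbers, with 343wt highest and 444wt lowest. Foxj3 stood at 25.9, 26.8, 29.0 and 28.9 FPKM, Foxj2 at 13.4, 13.5, 10.5 and 12.4 FPKM, and Foxn2 at 8.75, 10.4, 9.49 and 9.20 FPKM. The coefficients of variation between numbers ranged from 5.54% for Foxj3 to 10.9% for Foxj2 in these 6 genes.

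The remaining members of 1 FPKM or more came from the FoxF, FoxC, FoxS, FoxQ, FoxR, FoxN, FoxI and FoxJ subfamilies. Foxf1a, required for mesenchyme of the lung and gut, stood at 9.58, 12.6, 14.5 and 14.1 FPKM. Foxc2, a factor of lymphatic vessels that has also been described in a quiescent subset of spermatogonia, stood at 2.95, 3.34, 4.10 and 4.07 FPKM. Foxs1, which is known from sensory neurons and from cells around blood vessels of the fetal testis, stood at 8.18, 3.72, 8.61 and 15.9 FPKM, the widest spread among these 20 genes. Foxq1, the gene of the satin hair mutation, stood at 12.0, 14.6, 6.70 and 9.02 FPKM. Foxr1 stood at 6.80, 7.95, 11.2 and 10.4 FPKM, and Foxn4, a factor of retinal progenitors, at 1.74, 1.62, 3.45 and 2.77 FPKM. Both were higher in 444wt and 456wt than in the other two numbers. Foxi3, a factor of ectodermal appendages, stood at 1.14, 1.51, 1.57 and 1.29 FPKM with overlapping libraries, and Foxj1, the switch of motile cilia, at 1.02, 0.940, 1.40 and 1.497 FPKM.

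The order of these 20 genes was clear only in part. Of the 19 pairs of neighbours in that order, the gene with the higher mean was higher in all 4 numbers in 5, namely Foxn3 over Foxk2, Foxj3 over Foxp1, Foxk1 over Foxc2, Foxc2 over Foxn4 and Foxn4 over Foxi3. In the other pairs the 2 genes changed places in at least 1 number, and Foxo3 exceeded Foxm1 in 2 numbers only. With 4 numbers, an exact two-sided sign-flip permutation test cannot give a p below 0.125, so no pair was called different.

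Between 0.1 and 1 FPKM lay 14 members. The 3 FoxA genes, factors of liver and other gut-derived organs, all fell in this range, with Foxa1 at 0.379 ± 0.121, Foxa3 at 0.257 ± 0.0428 and Foxa2 at 0.233 ± 0.0150 FPKM (SD, n = 4). Foxh1, a partner of SMAD proteins in Nodal signalling, led the range at 0.677 ± 0.226 FPKM. Foxd2 stood at 0.369 ± 0.104 FPKM and Foxc1, a factor of mesenchyme and the eye, at 0.347 ± 0.176 FPKM. The neural crest and stem cell factor Foxd3 stood at 0.141 ± 0.0723 FPKM, the renal stroma factor Foxd1 at 0.122 ± 0.0521 FPKM and the thyroid factor Foxe1 at 0.117 ± 0.0453 FPKM. Near the lower end of the range were Foxl1 at 0.116 ± 0.0551 and Foxl2 at 0.110 ± 0.0384 FPKM. Foxl2, the ovarian factor, corresponded to an estimated 50 fragments in all 12 libraries together.

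The remaining 9 members were below 0.1 FPKM and rested on few fragments. They were Foxf2 (0.0558 FPKM), Foxe3 of the lens (0.0542), Foxn1 of the thymus (0.0358), Foxr2 (0.0358), Foxb2 (0.0183), Foxd4 (0.0108), Foxi1 of the inner ear and kidney (0.00750), Foxb1 of the hypothalamus (0.00583) and Foxi2 (0.00417 FPKM). Foxi2 was at 0 in 11 of 12 libraries and corresponded to an estimated 2 fragments, and Foxi1 to 3. The number of libraries at 0 ranged from 3 to 11 in this set. Foxr2 was at 0 in all libraries of 186wt and had 0.103 FPKM in 444wt. At the estimated depth, 0.1 FPKM of a transcript of 2 kb is 35.4 fragments in 12 libraries, and a count of 0 allows up to 0.00847 FPKM (3 fragments over the 12 libraries) or, in 1 library, 0.103 FPKM. These limits cover counting error only.

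The 4 sample numbers were then compared gene by gene with limma, an F-test across the numbers on log2(FPKM + 0.1) with Benjamini-Hochberg adjustment over 20795 genes of at least 0.1 FPKM. The 3 libraries of a number may share 1 RNA, so the test compares these 4 samples and their p-values measure only the spread between libraries. Of the 34 forkhead genes tested, 21 differed between the numbers at an adjusted p under 0.05 (61.8%), and the background over all genes tested was 58.2%. Of the 20 genes of 1 FPKM or more, 19 differed (background 75.8%), with Foxi3 the exception (adjusted p = 0.343). Below 1 FPKM, Foxa1 (adjusted p = 0.0404) and Foxc1 (adjusted p = 0.00302) of 14 passed. Low genes passed less often in the table as a whole. Of its 12107 genes that passed among 20795 tested, 10869 were among the 14348 of 1 FPKM or more. The median log2 range between the highest and lowest number was 0.573 over the 34 genes and 0.547 over all genes tested. Among genes of 1 FPKM or more it was 0.493 for the forkhead genes and 0.424 for all. In 19 of the 20 genes the libraries of the highest and lowest number did not overlap (background 87.6%). Over the 34 genes, the share called was thus near that of the table. Among the 20 genes of 1 FPKM or more it was above that of the table, and this was not tested.

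Most of these differences were small. In 4 genes that passed, the log2 range exceeded 1 (background 10.5%), namely Foxs1 (2.06), Foxc1 (1.33), Foxq1 (1.11) and Foxn4 (1.05). The calls of Foxk2 (log2 range 0.21, adjusted p = 0.0325), Foxj3 (0.16, adjusted p = 0.0444) and Foxa1 (0.70, adjusted p = 0.0404) were the least firm, since they were lost under 9, 14 and 17 of the 22 alternative settings.

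Each number was also set against the mean of the other 3 in the same fit. These 4 contrasts share libraries and are not independent. In 343wt, 8 forkhead genes were higher (background 14.5%), namely Foxo3, Foxp4, Foxn3, Foxo6, Foxj2, Foxq1, Foxn2 and Foxk1, and 7 were lower (25.6%), namely Foxm1, Foxp1, Foxo4, Foxs1, Foxn4, Foxj1 and Foxc1. In 444wt, 7 were higher (26.5%), namely Foxm1, Foxp1, Foxf1a, Foxo4, Foxr1, Foxc2 and Foxn4, and 8 were lower (17.8%), namely Foxo3, Foxp4, Foxn3, Foxk2, Foxo6, Foxj2, Foxq1 and Foxk1. All of these but Foxk2 were also called higher in 343wt, and Foxm1, Foxp1, Foxo4 and Foxn4 were called higher in 444wt and lower in 343wt. A low value in 444wt raises the difference of 343wt from the other 3, and a high value lowers it. The share of all genes with such opposite calls is not given here, so the overlap is not a result about the family. In 186wt, 5 were higher (14.8%), namely Foxo3, Foxp4, Foxo6, Foxj2 and Foxq1, and 9 were lower (21.9%). In 456wt, 8 were higher (22.9%), among them Foxs1, Foxc1 and Foxj1, and 4 were lower (13.6%), namely Foxo3, Foxp4, Foxo6 and Foxq1. When each library was rescaled to the median gene, 186wt had 6 higher and 5 lower, and 456wt had 5 higher and 5 lower. Without replicate 1, 2 or 3 of 456wt, the number higher in 456wt was 5, 5 and 4. The backgrounds above are those of the main fit, and those under these settings are not given here. Whether these changes are particular to the family is therefore not known. No difference of a forkhead gene that passed in a contrast changed its sign under the other pseudocounts and filters, the rescaling, the replicate block or the removal of any single library.

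**Figure D2:**
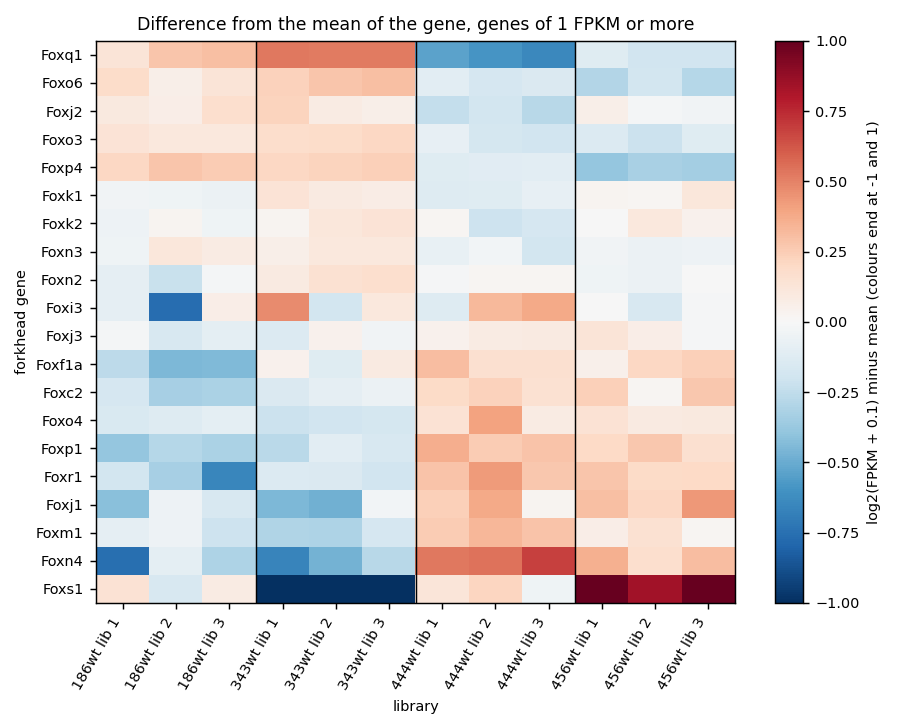
Difference of each library (columns, 3 per sample number) from the mean of the gene over 12 libraries, in log2(FPKM + 0.1), for the 20 forkhead genes of 1 FPKM or more (rows, ordered by 444wt minus 343wt). Red is above and blue below the mean, and colours end at -1 and 1. Foxq1 at the top was lowest in 444wt, Foxs1 at the bottom was lowest in 343wt and highest in 456wt, and the libraries of a number resembled each other in most rows.

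Foxs1 had the largest range among the tested members. Its FPKM were 8.89, 7.15 and 8.5 in the libraries of 186wt, 3.52, 3.70 and 3.93 in 343wt, 8.75, 9.30 and 7.77 in 444wt and 16.2, 14.4 and 17.0 in 456wt. All 3 libraries of 456wt were above, and all 3 of 343wt below, the other 9. The highest number exceeded the lowest 4.27-fold (adjusted p = 6.11e-08), with a log2 difference from the other 3 of 1.30 ± 0.0787 (SE) in 456wt and -1.45 ± 0.0787 in 343wt. The gene has a single exon of 1311 bases on chromosome 2, shares no 50-base stretch with other genes, and rested on an estimated 2035 fragments. Foxc1 had the same highest and lowest number at a lower level, with 0.313, 0.183, 0.297 and 0.597 FPKM.

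Foxq1 had 11.1, 12.3 and 12.5 FPKM in the libraries of 186wt, 14.7, 14.6 and 14.5 in 343wt, 6.97, 6.69 and 6.43 in 444wt and 9.33, 8.86 and 8.87 in 456wt. The libraries of the 4 numbers did not overlap at all. The highest number exceeded the lowest 2.18-fold (adjusted p = 4.32e-08), and the log2 difference from the other 3 was 0.70 ± 0.0432 (SE) in 343wt and -0.79 ± 0.0432 in 444wt. An antisense gene, A530084C06Rik, covers 1164 of its 2801 exonic bases, and 40.5% of the 50-base stretches of the transcript are shared with it. That gene had 1.35, 1.60, 0.933 and 0.880 FPKM, the highest again in 343wt, and the reads of the pair cannot be told apart without a strand setting.

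The 250 bases upstream of the annotated starts of Foxs1 and Foxq1 are shown because these were the 2 genes of 1 FPKM or more with the widest range. Both are on NCBI build 37, with GENCODE M1 starts, and written 5′ to 3′ on the strand of the gene. Capitals mark matches on either strand to the GC box GGGCGG, the TATA box TATAAA, the CCAAT box CCAAT and the forkhead core TGTTTAC, and 2 GC boxes overlap in Foxq1.
Foxs1 (chr2:152758945-152759194, minus strand): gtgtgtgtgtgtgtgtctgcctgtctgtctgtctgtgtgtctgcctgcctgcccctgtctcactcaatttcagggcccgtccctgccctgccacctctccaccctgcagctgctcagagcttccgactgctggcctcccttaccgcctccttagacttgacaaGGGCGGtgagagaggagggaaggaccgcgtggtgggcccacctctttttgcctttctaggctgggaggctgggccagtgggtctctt
Foxq1 (chr13:31649789-31650038, plus strand): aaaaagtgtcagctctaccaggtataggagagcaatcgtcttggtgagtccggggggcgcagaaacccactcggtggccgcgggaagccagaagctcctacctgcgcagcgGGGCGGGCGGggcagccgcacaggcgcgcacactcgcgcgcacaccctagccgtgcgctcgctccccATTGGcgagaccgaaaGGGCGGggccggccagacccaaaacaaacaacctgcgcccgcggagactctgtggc

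The Foxs1 stretch holds 1 GC box and 6 CpG dinucleotides, and the Foxq1 stretch 3 GC boxes, 1 CCAAT box and 26 CpG dinucleotides. Neither holds the TATA box or the forkhead core. Over the same 250 bases of 22333 protein-coding genes, 39.6% hold the GC box, 12.3% the TATA box, 35.0% the CCAAT box and 2.73% the forkhead core. A match is a description of the letters and not a site of binding.

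Markers of somatic cells of the testis were present beside those of germ cells. Markers of Sertoli cells, the supporting cells of the tubule, summed to 4469 FPKM in 186wt, 4631 in 343wt, 2589 in 444wt and 2758 in 456wt, and 11 of 11 were higher in both 186wt and 343wt and lower in both others. Markers of peritubular myoid cells, which surround the tubule, summed to 562.3, 265.8, 706.2 and 1180 FPKM, with 7 of 7 higher in 456wt and 7 of 7 lower in 343wt. The Sertoli and peritubular lists thus had different highest numbers. Markers of interstitial fibroblasts summed to 282.0, 406.2, 335.4 and 998.6 FPKM, with 7 of 7 higher in 456wt. Markers of differentiating spermatogonia summed to 270.5, 286.0, 428.6 and 355.2 FPKM, with 8 of 8 higher in 444wt. Early meiotic markers summed to 547.8, 440.3, 716.8 and 529.3 FPKM, with 14 of 15 higher in 444wt and 15 of 15 lower in 343wt. Both of these germ cell lists were highest in 444wt. Round spermatid markers summed to between 3.71 and 6.10 FPKM, with Prm2 and Spaca3 at 0 in all libraries, and no marker of the other lists was at 0 throughout. Of the smaller lists, undifferentiated spermatogonia lay between 130.6 and 188.3, pachytene spermatocytes between 112.8 and 176.1, Leydig cells between 16.4 and 120.1, endothelial cells between 19.5 and 45.0, macrophages between 8.66 and 35.5 and red blood cells between 30.3 and 173.4 FPKM.

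The order of the 4 numbers in several forkhead genes was that of a marker list. Foxq1, Foxn3 and Foxj2 had the order of the summed Sertoli list (343wt, 186wt, 456wt, 444wt). Of all genes of 1 FPKM or more, 8.04% had this order. Clu, the most abundant Sertoli marker, had it too, with 2289 FPKM in 186wt, 2380 in 343wt, 1251 in 444wt and 1456 in 456wt. Of the other Sertoli markers, only Inha had it. Aard, Amh, Dhh and Sox8 had the order of Foxo3 and Foxo6, and Sox9 and Wt1 that of Foxp4. Cst12, Fshr and Gata1 had a further order. Foxs1 and Foxj1 had the order of the peritubular list (456wt, 444wt, 186wt, 343wt), which 8.54% of genes had. Foxp1, Foxf1a, Foxr1, Foxc2 and Foxj3 had the order of both spermatogonial lists and of the round spermatid list (444wt, 456wt, 343wt, 186wt), which 12.5% of genes had. Foxk1 and Foxk2 had the order of the Leydig and macrophage lists (343wt, 456wt, 186wt, 444wt), which 2.44% of genes had. Foxm1, Foxo4 and Foxn4 shared the order 444wt, 456wt, 186wt, 343wt with 12.8% of genes and with none of the lists, and Foxm1 had the same highest and lowest number as the early meiotic list. Foxo3 and Foxo6 shared theirs with 4.62% of genes. The other cell type lists had further orders, each found in 2.34% to 7.86% of genes. A match to any of the lists is thus more frequent among all genes than each share given here. Some orders rest on near ties, such as 444wt over 456wt in Foxj3 (29.03 and 28.85 FPKM) and Foxc2 (4.10 and 4.07 FPKM). The part of the cell makeup in the differences between numbers was not tested.

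**Figure D3:**
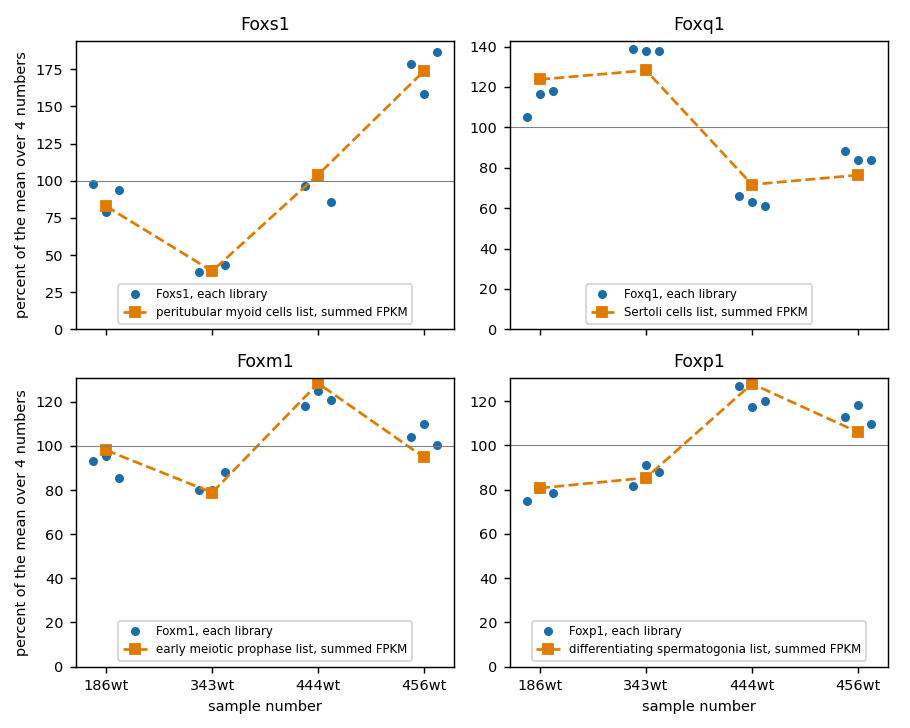
Levels of 4 forkhead genes in each library (blue points) and the summed FPKM of a marker list (orange squares, dashed line), both as a percent of their mean over the 4 sample numbers on the x axis. The pairs were chosen after the values were seen. The highest and lowest number were the same in gene and list in all 4 panels, for example 456wt and 343wt in Foxs1 and the peritubular list. Lists not drawn had the same pairs, such as the pachytene list for Foxs1 and the Leydig and macrophage lists for Foxq1. Single Sertoli markers were lowest in 444wt (such as Clu) or in 456wt (such as Amh).

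The genes around the family were described by 6 lists. Over all genes tested, the background of genes that differ is again 58.2% and the median log2 range 0.547. Among genes of 1 FPKM or more these are 75.8% and 0.424, which is the closer background where a list holds few low genes. The median level of every list was above 1 FPKM. Of 30 genes upstream of FoxO (kinases, phosphatases, 14-3-3 proteins and receptors), 25 differed between numbers, with a median log2 range of 0.296. The 14-3-3 genes Ywhae (292.5 ± 20.04 FPKM) and Ywhaq (259.1 ± 9.05 FPKM, SD, n = 4) were the most abundant. Kit, the receptor of differentiating spermatogonia, was at 41.0, 34.5, 56.0 and 49.2 FPKM (adjusted p = 5.17e-08), and Kitl, its ligand made by Sertoli cells, ran the other way with 47.8, 59.9, 31.6 and 28.0 FPKM (adjusted p = 1.69e-09). Of 26 genes described elsewhere as FoxO targets, 24 were tested and 20 differed (median log2 range 0.469), and Igfbp1 was at 0 in all libraries. Txnip, an inhibitor of thioredoxin, was lowest in 186wt at 104.2 FPKM, and the other numbers lay between 158.5 and 172.2 FPKM. Cited2 was at 82.6, 85.1, 62.03 and 62.4 FPKM, with 186wt and 343wt the higher pair as in Foxo3, whereas the ubiquitin ligase Fbxo32 was at 18.6, 13.8, 28.9 and 33.2 FPKM, with that pair the lower. Of the 24 tested, 6 were higher in 186wt (background 14.8%), 10 in 343wt (14.5%), 5 in 444wt (26.5%) and 8 in 456wt (22.9%). In the same sequence of numbers, 8 (21.9%), 3 (25.6%), 8 (17.8%) and 5 (13.6%) were lower. In no single number were most genes of the list higher.

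Genes described as Foxm1 targets were mostly higher in 444wt and 456wt. Of 21 genes, 19 differed (median log2 range 0.473), with 17 higher in 444wt (background 26.5%), 15 higher in 456wt (22.9%), 18 lower in 186wt (21.9%) and 16 lower in 343wt (25.6%). Top2a, the topoisomerase of chromosome condensation, was at 90.3, 88.8, 132.5 and 109.4 FPKM, Ccnb1, the mitotic cyclin, at 61.0, 61.9, 91.1 and 87.0 FPKM, and the cytokinesis kinesin Kif20a at 33.7, 32.5, 49.3 and 46.3 FPKM. Foxm1 itself was highest in 444wt and lowest in 343wt. Of the 8 markers of differentiating spermatogonia, which are dividing cells, 8 were higher in 444wt and 6 in 456wt, and their part in this was not tested.

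Of 27 genes of the Foxj1 programme of motile cilia, 24 were tested and 18 differed (median log2 range 0.716), a count that was 11 when 444wt was left out. Tubb4b, a tubulin used in axonemes and elsewhere, was at 403.4, 438.0, 577.3 and 560.9 FPKM, the centrin gene Cetn2 at 22.4, 23.5, 26.8 and 28.0 FPKM, and Rsph1, of the radial spoke, at 25.7, 23.0, 14.9 and 23.1 FPKM. Of the 24 tested, 2 were higher in 186wt (background 14.8%), 0 in 343wt (14.5%), 8 in 444wt (26.5%) and 11 in 456wt (22.9%). In the same sequence of numbers, 5 (21.9%), 7 (25.6%), 5 (17.8%) and 0 (13.6%) were lower. The called genes thus had a single direction in 343wt and 456wt and both directions in 186wt and 444wt. Foxj1 itself was called lower in 343wt and higher in 456wt, and its part in this was not tested. The median level of the list was 1.29 FPKM. Of 20 genes of ovarian and testicular sex determination, 14 differed (median log2 range 0.670). Foxl2 at 0.110 FPKM stood beside Dmrt1, the factor that guards the testicular fate, at 143.7 ± 17.5 FPKM and Amh at 70.1 ± 21.6 FPKM (SD, n = 4). Nr0b1 was at 53.4, 52.0, 33.1 and 33.9 FPKM and Ctnnb1 nearly constant between 213.7 and 219.8 FPKM (adjusted p = 0.439). Of 22 chromatin partners of forkhead proteins, 20 differed (median log2 range 0.327), among them the co-repressor Sin3b (481.3, 464.7, 353.5 and 373.7 FPKM) and the deacetylase Hdac1 (67.0, 68.5, 86.8 and 80.4 FPKM) and the remodeller Chd4, which lay between 122.1 and 136.5 FPKM. The adjusted p-values of these lists are those of the limma fit over all genes.

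The members with higher levels more often had many exons. Of the 20 genes of 1 FPKM or more, 3 had a single exon and 11 had at least 5 exons, with a median gene length of 19960 bases. Of the 23 genes below 1 FPKM, 10 had a single exon and 3 at least 5, with a median of 3249 bases. The stretch that encodes the DNA-reading helix was split by an intron in 11 of the 20, as in Foxo3, Foxm1 and Foxp4, and lay within 1 exon in 9, as in Foxs1 and Foxq1. Below 1 FPKM it was split in 2 (Foxp2 and Foxp3) and within 1 exon in 20. Subfamilies share their structure, so the genes are not independent and no test was made. Exons of other protein-coding genes were not counted by level, so whether this is particular to the family is not known.

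**Figure D4:**
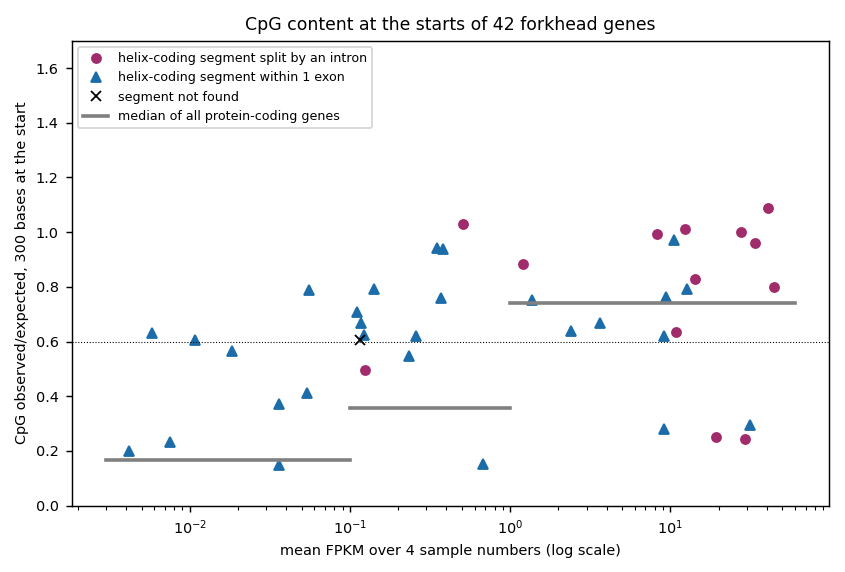
CpG observed/expected ratio in the 300 bases around the annotated start (250 before and 50 after) of 42 of the 43 forkhead genes against their mean FPKM on a log axis. Circles and triangles tell whether an intron splits the helix-coding stretch, the cross is Foxl1, grey bars are medians of all protein-coding genes in the same FPKM range, and the dotted line is 0.6. Most forkhead genes below 1 FPKM lie above the grey bar of their range.

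Members with low levels had more CpG dinucleotides at their starts than other genes of the same level. The CpG observed/expected ratio had a median of 0.778 in the members of 1 FPKM or more, 0.645 between 0.1 and 1 FPKM and 0.410 below 0.1 FPKM. The medians of all protein-coding genes in these ranges were 0.742, 0.356 and 0.166. A ratio of at least 0.6 was found in 16 of 20, 10 of 14 and 3 of 9 members, compared with 67.7%, 24.9% and 6.32% of protein-coding genes. Foxs1 (0.281), Foxn3 (0.294), Foxp1 (0.250) and Foxk2 (0.242) were the members of 1 FPKM or more below 0.6. The start used is the outermost of the gene model and need not be the one in use in these cells. Foxp1 has 16 annotated transcripts, Foxk2 has 5 and Foxn3 has 2. Foxa1 (0.940), Foxc1 (0.943) and Foxp2 (1.03) were the highest of those below 1 FPKM.

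Some members lie side by side. On chromosome 13, Foxq1, Foxf2 and Foxc1 follow each other with gaps of 64.8 and 175 kb, and on chromosome 8, Foxf1a, Foxc2 and Foxl1 with gaps of 29.2 and 9.05 kb. Their levels were unlike, with 10.6, 0.0558 and 0.347 FPKM in the former and 12.7, 3.62 and 0.116 FPKM in the latter. Foxf1a and Foxc2 had the same order of the 4 numbers, and Foxq1 and Foxc1 had different ones. On chromosome 4, Foxd2 (0.369 FPKM) and Foxe3 (0.0542 FPKM) are 16.2 kb apart.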

How the data were processed

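RNA-seq of 12 libraries was analysed, and the other 9 samples of the series (DNA-binding, histone mark and input libraries) were not analysed here. The transcripts of NCBI build 37 (mm9) were the authors' reference for alignment of 100-bp reads by Bowtie 0.12.9. Alignments with at least 2 mismatches were dropped, and FPKM were estimated by RSEM 1.2.8, set to fragments of 280 ± 50 bp. In the deposited table FPKM have 2 decimals, and a strand setting is not given in the sources used here. RSEM divides reads among transcripts that fit equally well.

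Libraries were grouped by sample number. limma 3.58.1 in R 4.3.3 (lmFit, eBayes with trend) was applied to log2(FPKM + 0.1) in genes whose mean reached 0.1 FPKM, so fold changes of low genes are understated. Other values came from Python 3.11.15 with numpy 2.4.6 and pandas 2.3.3, and plots from matplotlib 3.10.9. Sequences and gene models came from NCBI build 37 and GENCODE M1, which hold 37205 of 37620 identifiers. Depth was estimated from the steps between low FPKM of single-transcript genes of 500 to 1500 bp, where 69.6% to 75.0% of values lay within 0.1 of a whole fragment. It was 13.0 to 18.1 M (mega) fragments per library, and the scripts were tested on simulated data. FPKM summed to between 477629 and 485096 per library. Members of 1 FPKM or more were given in each number, those down to 0.1 FPKM by mean and SD, and up to 4 genes of each list were named (the 2 highest and the 2 with the smallest p). The members, gene lists and tests were chosen with earlier results of these data known, and lists share some genes. Alternatives were other pseudocounts and filters, rescaling, a replicate block, and leaving out each library or number. The values of 1 further member, which stays in the counts, are not reported here.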

Additional observations from a re-analysis of the deposited data

How the results depend on the processing

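The number of forkhead genes counted as expressed was 20 with a minimum of 1 FPKM. Without a filter on low values, 11 were higher in 444wt. With each library rescaled to the median gene (factors 0.957 to 1.03, a shift of up to 0.103 on the log2 scale), 5 were lower in 186wt and 5 higher in 456wt. When each library or number was left out in turn, 31 to 34 genes were expressed, their median level was 0.473 to 0.540 FPKM, and 16 to 20 differed between numbers. Over all genes tested, 47.7% to 54.3% differed with a number left out and 55.0% to 56.7% with a library left out. These shares are also the background of the list counts below. When each library alone was left out, the counts of genes higher were 4 to 6 in 186wt, 7 to 9 in 343wt, 7 to 8 in 444wt and 4 to 9 in 456wt, and of genes lower 6 to 8, 6 to 9, 6 to 8 and 4 to 4. For all these counts of genes higher or lower, the share of all genes is given for the main fit only. With each library or number left out, genes that differed were 18 to 25 upstream of FoxO, 15 to 20 FoxO targets, 18 to 19 Foxm1 targets, 11 to 18 cilia genes (11 without 444wt), 12 to 15 of sex determination and 16 to 20 partners. Over all alternatives, the F-tests of single genes stayed on their side of the threshold in 673 cases, no longer passed in 48 and newly passed in 3. The contrasts of single genes, which were not made with a whole number left out, kept direction and call in 933 cases, lost the call in 73 and never reversed. The levels of the 20 genes of 1 FPKM or more moved by less than 1 SD in all 120 cases. Leaving out 1 of 4 numbers cannot move their mean by 1 SD, so the cases of that kind are no check. The cause of these changes was not tested.

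The library numbers 1 to 3 did not pair the libraries of different sample numbers. Deviations of same-numbered libraries correlated between -0.0407 and 0.0299 over 18 pairs, and 3 of 12 libraries correlated best with their own number. With the replicate block, 18 of the 21 genes still differed and Foxk2, Foxj3 and Foxa1 did not. Over all genes tested, 56.6% differed in that setting.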
